A study of Mus musculus with 6 samples.

Results

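Whole male mouse embryos in mid-gestation (E13.5, in days of embryonic development) were compared between 2 strains, each as 1 array hybridised with RNA pooled from 3 embryos. The pair was chosen by tissue and strain from the labels and makes up 2 of the 6 arrays in the series. 1 pool was 129/Sv, and the other was 129.MOLF-Chr19, a consomic strain that carries chromosome 19 of the MOLF strain on the 129 background. The other 4 arrays held pooled testes of the same strains at E13.5 (20 testis pairs for each strain) and on postnatal day 1 (PN1, 12 testis pairs of 129/Sv and 25 of 129.MOLF-Chr19). The submitters used the embryos to ask whether strain differences in the testis were specific to the gonad. No group had a second array, so no test, error or p-value is given for any difference, and a difference describes these pools.

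In a consomic strain 1 whole chromosome is exchanged for that of another strain. A gene on that chromosome can therefore differ between the strains through its own regulatory sequence. A gene elsewhere can differ between them through the action of the exchanged chromosome or through other differences between the stocks. Mice of the 129 family are prone to testicular germ cell tumors, and the MOLF chromosome raises that tendency. A mid-gestation embryo contains a liver that is both the source of plasma proteins and the main site of blood formation, a beating heart, differentiating muscle and cartilage, and a nervous system in which progenitors and new neurons lie side by side. In RNA from a whole embryo, fewer cells of a type and less RNA per cell cannot be told apart.

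The 129/Sv embryo array stood apart from the other 5 in 1 respect before any strain comparison was made. Its probe set for the 3′ part of 18S ribosomal RNA read 3053 intensity units against 571 to 787 on the other 5 arrays, and the 5′ part read 2210 against 188 to 354. The 18 hybridization control probe sets were also brighter on it, with a median difference of -0.42 (129.MOLF-Chr19 minus 129/Sv, log2) and a range of -0.74 to -0.03. The median intensity was 251 on the 129/Sv array and 236 on the 129.MOLF-Chr19 array. The 3′ to 5′ ratio of Actb was 1.11 and 1.10, and that of Gapdh 0.933 and 0.966. On the testis arrays the Actb ratio was 1.84 for PN1 129.MOLF-Chr19 and 1.09 to 1.19 for the rest. The part of the 129/Sv embryo array in the differences below was not tested, and without it there is no strain comparison in the embryo.

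The organ markers expected of a whole embryo were present in both pools. Alb and Afp, the main plasma proteins of the fetal liver, read 6413 and 9220 in 129/Sv and 5499 and 8004 in 129.MOLF-Chr19. The cardiac actin gene Actc1 read 6273 and 6086, and the cartilage collagen gene Col2a1 3734 and 4664. The embryonic globins Hbb-y and Hba-x read 14139 and 13250 in the 129/Sv embryo and 13946 and 13680 in the 129.MOLF-Chr19 embryo. Most markers of the fetal gonad were low, with the germ cell gene Ddx4 at 18.1 and 22.1 and the Sertoli cell hormone gene Amh at 187 and 147. Of 15 such genes measured, 4 passed the array median in at least 1 pool, Utf1, Dnd1, Star and Hsd3b1. Utf1 read 2235 and 1581 in the embryos and 1519 to 2179 in the testes. Of the male check, the Y-linked gene Uty read 439 and 381 with its brightest probe set. Its other probe sets, like those of Eif2s3y, Kdm5d and the female transcript Xist, did not pass the array median in either pool.

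Promoters are printed for a few genes of the fetal liver list, because liver promoters are known to be bound by the hepatocyte factor HNF1, and further on for a pair of chaperone genes. The 150 bases before the start site of 4 of them are printed 5′ to 3′ from RefSeq (GRCm38.p6), all on the plus strand, with the letters GTTAAT or their reverse complement, the core of the HNF1 motif, in capitals. They are Alb (chr5:90460720-90460869), Afp (chr5:90490564-90490713), Fga (chr3:83026003-83026152) and Vtn (chr11:78498970-78499119).
Alb: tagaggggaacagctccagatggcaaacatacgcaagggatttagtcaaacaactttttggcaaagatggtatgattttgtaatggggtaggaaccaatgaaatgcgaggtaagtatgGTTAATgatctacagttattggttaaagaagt
Afp: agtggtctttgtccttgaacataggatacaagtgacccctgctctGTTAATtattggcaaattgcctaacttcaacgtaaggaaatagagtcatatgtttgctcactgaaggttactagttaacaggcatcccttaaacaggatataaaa
Fga: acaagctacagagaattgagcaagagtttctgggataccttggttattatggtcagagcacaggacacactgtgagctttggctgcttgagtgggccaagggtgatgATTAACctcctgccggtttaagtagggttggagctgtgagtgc
Vtn: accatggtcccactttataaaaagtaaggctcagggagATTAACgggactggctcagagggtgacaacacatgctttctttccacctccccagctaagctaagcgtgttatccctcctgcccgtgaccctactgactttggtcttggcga
Of the 22 liver genes compared, 20 had a promoter in the RefSeq table, and 8 of these held GTTAAT on either strand in the 250 bases before the start site (Afp, Alb, Apoc2, Fga, Fgb, Hnf4a, Serpina1b and Vtn). Over all 32851 promoter windows of that length, 6.43% held it. A match of letters describes the sequence and is no evidence of binding.

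Few genes lay 2-fold apart between the embryo pools. A gene was represented by the probe set that was brightest on average over the 6 arrays, its value was log2 intensity relative to the array median, and it was compared if it lay above the median on at least 1 embryo array, which left 12671 of 18193 genes. Of these, 7 (0.0552%) passed 2-fold with the 129.MOLF-Chr19 embryo the higher, and 36 (0.284%) with it the lower. With a limit of 1.5-fold the counts were 144 (1.14%) and 279 (2.2%). The median difference was 0.02 with an SD across genes of 0.28, and 53.2% of genes lay above 0 and 46.8% below. The 2 arrays correlated across genes at Pearson's r = 0.96, as a description of 2 pools. The submitters' own count was 35 genes past 2-fold, 5 of them on chromosome 19.

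**Figure D1:**
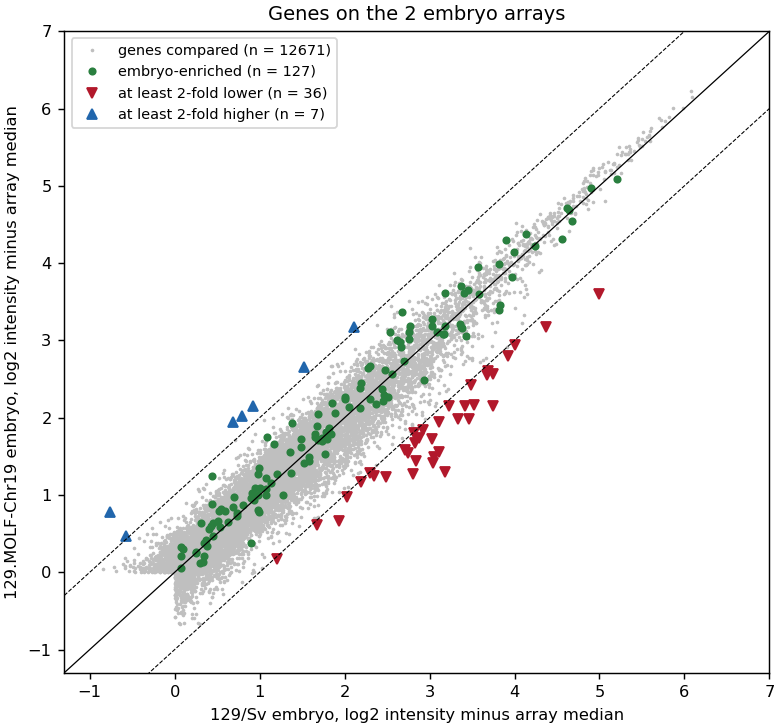
Level of each of 12671 genes on the 129/Sv embryo array (x axis) and the 129.MOLF-Chr19 embryo array (y axis), both as log2 intensity minus the array median, with dashed lines at 2-fold. The 36 genes lower in 129.MOLF-Chr19 lie mostly at high levels, and none of the 127 embryo-enriched genes lies past 2-fold.

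The largest difference was that of Dsn1, a subunit of the MIS12 complex that ties the centromere to spindle microtubules. Dsn1 read 2283 in the 129/Sv embryo and 581 in the 129.MOLF-Chr19 embryo, and 753 to 869 on the 4 testis arrays, a log2 difference of -1.89. The 129/Sv embryo was the only array on which it was bright, and Dsn1 has no other probe set on the array. Of the 19 kinetochore genes compared, 14 lay above 0 and the median was 0.10 (0.02 without centring), so Dsn1 stood opposite to most of them. Its partners in the same complex, Mis12, Nsl1 and Pmf1, differed by 0.38, -0.15 and 0.12. Bub1, a checkpoint kinase, was highest at 0.65 (375 and 553).

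Several receptor and signalling genes were among the 36, named here by role and not as a tested group. Fzd8, a Wnt receptor expressed in the early forebrain, read 2070 and 628 in the embryos and 678 to 816 in the testes (log2 -1.63). None of the other 9 frizzled genes differed by as much as 1.5-fold, from -0.32 for Fzd5 to 0.37 for Fzd2, and the median over 21 Wnt pathway genes was -0.02. Rfng, 1 of the fringe enzymes that add sugar to Notch receptors, read 2072 and 665 in the embryos and 745 to 865 in the testes (log2 -1.55). A second expressed probe set of Rfng read 974 and 784, a difference of -0.23. The other fringe genes lay on both sides, Lfng at -0.38 and Mfng at 0.44, and the receptor gene Notch1 was at 0.78 (600 and 971) with 1 probe set and at 0.04 (571 and 553) with the other. The median over 18 Notch pathway genes was 0.14, and 0.05 without centring.

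Further signalling genes lower in 129.MOLF-Chr19 included Map3k12, a stress kinase of neurons, at 2875 and 1059 (log2 -1.35). It differed from most of the 36 in that the 129/Sv testes were about as bright, at 3012 and 2887, and that the PN1 testis showed the same sign at -1.28. Its other expressed probe set was at 0.11 in the embryo. Pik3r1, the regulatory subunit of phosphoinositide 3-kinase, was at -1.14, with its 3 other expressed probe sets at 0.50, 0.10 and -0.16. Pde4d, which degrades cyclic AMP, was at -1.06, and the death receptor gene Tnfrsf21 at -1.10 with a second probe set at -0.43. Rasl10b, a Ras-like GTPase, read 1792 and 640 (log2 -1.40), and Drg2, another GTP-binding protein, 1775 and 752 (log2 -1.15).

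RNA processing genes among the 36 included 3 named here by role. Sf1, the branch point binding protein on chromosome 19, is taken up with that chromosome below. Sf3b6, a small subunit of the SF3b splicing complex, read 5202 and 2132 (log2 -1.20), while its other expressed probe sets were at 0.24 and -0.07. Tnrc6b, a scaffold of microRNA silencing, was at -1.17 with other probe sets at 0.54 and 0.16. In contrast, of 22 splicing factors and regulators that include Sf1, 18 lay above 0, with a median of 0.21 that was 0.12 without centring and 0.10 with the mean of each gene's probe sets. Hnrnpa1 was at 0.40 and Mbnl2 at 0.39, and none reached 1.5-fold higher.

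Genes of the Golgi, membranes and mitochondria among the 36 are likewise named by role only. Cog1, a subunit of the conserved oligomeric Golgi complex, read 2775 and 932 in the embryos and 997 to 1274 in the testes (log2 -1.49). Its 1 other expressed probe set was at -0.23, and the 5 other subunits compared lay between -0.38 for Cog4 and 0.32 for Cog3. The glucosyltransferase gene B3glct was at -1.07, the torsin gene Tor2a at -1.25, the connexin 26 gene Gjb2 at -1.14 and the mitochondrial ribosome gene Mrpl20 at -1.11. Atp1b1, the beta subunit of the sodium pump, read 4031 and 1811 (log2 -1.07), although its 3 other expressed probe sets were higher in 129.MOLF-Chr19, at 0.36, 0.42 and 0.36. For Tspan33, a tetraspanin, a second probe set read 1947 and 915, and 2 others were at 0.05 and 0.21.

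Tnni3, cardiac troponin I, was the heart gene with the largest difference. It read 1751 in the 129/Sv embryo and 571 in the 129.MOLF-Chr19 embryo (log2 -1.53), and 744, 795, 1132 and 1144 on the testis arrays, so the 129.MOLF-Chr19 embryo was the dimmest of all 6. Other sarcomere genes did not share this size. The ventricular myosin light chain gene Myl2 was at 0.37 (1238 and 1501), the myosin heavy chain gene Myh7 at -0.23, Mybpc3 at -0.37 and Actc1 at 0.04. Over 19 heart genes 13 lay below 0 and the median was -0.15, which was -0.04 with the mean of each gene's probe sets and -0.24 without centring. Myl2 read 86.5 to 102 in the testes and Actc1 211 to 293, so unlike Tnni3 they separated embryo from testis.

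The remaining genes at least 2-fold lower ranged from -1.59 to -1.01. They were Plcxd2 and Fam114a2 (-1.59 and -1.57), Cep85 of the centrosome (-1.35), the proteasome inhibitor gene Psmf1 (-1.31), Zfp692 (-1.28), Ttll10 (-1.27), the chromatin reader gene Phf20l1 (-1.20), Ccdc180 (-1.19), Sat2, 4930413G21Rik and Scrn3 (each -1.08), Cacng3, an accessory subunit of glutamate receptors (-1.03), Tinf2 of the telomere-capping shelterin complex and the helicase gene Dhx32 (each -1.01), and Trim8 and Sipa1 of chromosome 19 (-1.06 and -1.02). Just outside the threshold lay Ube2f and Fndc4 (-0.999 and -0.997) and Hltf (-0.98).

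Selection for a 2-fold lower level in 1 embryo itself favours genes that are bright on the 129/Sv array and dim on the other, so the levels of the 36 genes across the 6 arrays are given as a description. The 129/Sv embryo was the brightest of the 6 arrays for 34 of them, and the 129.MOLF-Chr19 embryo was the dimmest for 28. Relative to the mean of the testis arrays their median log2 level was 0.90 in the 129/Sv embryo and -0.29 in the 129.MOLF-Chr19 embryo, and 33 deviated more on the 129/Sv array. Their median strain difference was 0.12 in the E13.5 testis and -0.08 in the PN1 testis. The array on which they were bright is the one with the high 18S signal.

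**Figure D2:**
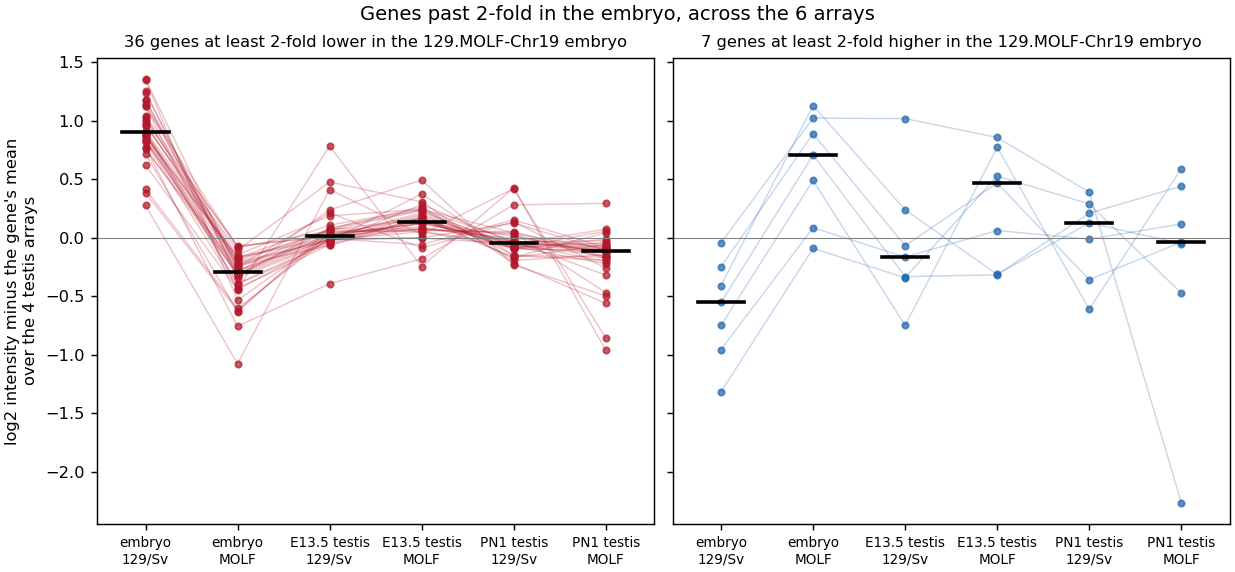
Log2 intensity of each gene past 2-fold in the embryo, minus its mean over the 4 testis arrays, on each of the 6 arrays; points and thin lines are genes and black bars are medians, with MOLF standing for 129.MOLF-Chr19. For the 36 lower genes the median is 0.90 on the 129/Sv embryo array and -0.29 on the 129.MOLF-Chr19 embryo array under a selection that favours this order.

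For most of the 36 the difference was seen with 1 probe set. Of the 36 genes, 18 had further expressed probe sets, 30 in number, whose median difference was 0.05. Of those 30, 13 were below 0 and 2 were at least 1.5-fold lower. By level of expression, 28 of the 36 lay among the brightest 3168 genes by level, 7 among the next 3167, 1 among the following 3168 and 0 among the rest. Of 23783 expressed probe sets counted one by one, 13 (0.0547%) were past 2-fold upward in 129.MOLF-Chr19 and 70 (0.294%) downward. A total of 4981 genes had more than 1 expressed probe set. In 3 of them (0.0602%) each of these probe sets was 1.5-fold or more higher, and in 0 (0%) each was 1.5-fold or more lower.

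The 3 genes whose expressed probe sets were all higher were Gsto1, Plagl2 and Hsph1. Gsto1, a glutathione transferase on chromosome 19, read 983 and 1539 with 1 probe set and 631 and 1042 with the other (log2 0.73 and 0.81). Its strain difference was smaller but of the same sign in the testes, 0.48 and 0.41 at E13.5 and 0.24 and 0.08 at PN1. Plagl2, a zinc finger transcription factor, was at 0.76 and 0.71, and the chaperone gene Hsph1 at 0.62 and 0.60. The second of these Plagl2 probe sets (204 and 314) passed the filter only through the 129.MOLF-Chr19 embryo. Another Plagl2 probe set, at 0.20 (211 and 228), did not pass the array median in either pool.

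The 7 genes at least 2-fold higher were fewer and dimmer. Slc35a5, of the nucleotide sugar transporter family, read 148 and 404 in the embryos and 139 to 220 in the testes (log2 1.54), and no other of its probe sets passed the array median. It was compared only through the 129.MOLF-Chr19 embryo, since 148 lies below the 129/Sv array median of 251, and with the probe set brightest in the testes it was at -0.35. Ifi35, an interferon-induced gene, read 404 and 910 (log2 1.26), while the other 9 interferon-response genes compared lay between -0.41 for Irf9 and 0.27 for Rsad2. Sp3, a transcription factor that binds GC boxes, read 435 and 957 (log2 1.22). Evl, a regulator of actin filaments, read 721 and 1493 (log2 1.14), and its 2 other expressed probe sets were also above 0, at 0.42 and 0.65.

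Kdm6b, a demethylase of histone H3 lysine 27, read 1083 and 2133 (log2 1.07), with other probe sets at -0.46 and -0.04. Nek8, a kinase of the primary cilium, read 169 and 326 (log2 1.04), where the 129/Sv embryo was the dimmest of the 6 arrays and the testes read 278 to 323. Nek8 too passed the filter only through the 129.MOLF-Chr19 embryo. The last of the 7, Tmem258, is on chromosome 19 and is described with it. Just outside the threshold lay Kat2b (0.999), Tmem109 (0.92) and Arl3 (0.90). Over the 7 genes, 4 were brightest in the 129.MOLF-Chr19 embryo and 4 were dimmest in the 129/Sv embryo.

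Genes that mark the embryo against the testis were looked at apart. A gene was called embryo-enriched when both embryo arrays were at least 2-fold above all 4 testis arrays, which held for 127 genes. Their median strain difference was 0.06, 86 lay above 0, and 0 were past 2-fold, where few would be at the shares over all genes given above. Of the 127, 3 lay past 1.5-fold upward and 0 downward. The 3 were Nhlh2, a neuronal transcription factor (340 and 561, log2 0.81), the neuronal tubulin gene Tubb3 (1599 and 2441, log2 0.70) and Irx3, a patterning factor (530 and 793, log2 0.67). Because the definition uses both embryo arrays, it was repeated with each alone. On the 129/Sv array 155 genes qualified, with Dsn1, Fzd8, Rasl10b, Rfng and Sf3b6 among the genes at least 2-fold lower. On the 129.MOLF-Chr19 array 147 qualified, with 0 past 2-fold. Each repeat selects on a level that also enters the strain difference, which favours lower genes on the 129/Sv array, so these counts are a description only.

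Liver genes were lower in the 129.MOLF-Chr19 embryo as a group, by small amounts. Of 22 compared, 18 lay below 0 against 46.8% of all genes, and the median was -0.20 against 0.02. None reached 1.5-fold in either direction. Other lists lay below 0 as well, such as epithelial adhesion (8 of 9, median -0.08) and placenta and yolk sac (5 of 5, median -0.18). Among lists with at least 5 genes compared, medians lay on both sides of 0, from -0.30 to 0.21. A small shift below 0 was thus not particular to liver. The apolipoprotein genes Apoa1 (3544 and 2478) and Apoa2 (3560 and 2599) were at -0.43 and -0.37. The steroid carrier gene Serpina6 read 2698 and 1969 (log2 -0.37), and the thyroxine carrier gene Ttr 2596 and 2137 (log2 -0.19). The lowest were the fibrinogen gene Fga (466 and 306, log2 -0.52) and the vitronectin gene Vtn (449 and 297, log2 -0.51), both among the promoters printed above. A second expressed probe set of Vtn, brighter in both embryos, was at -0.15 (746 and 633).

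The 2 brightest liver genes differed less, Afp at -0.12 and Alb at -0.13. The highest was Dlk1 at 0.16, which the testes also expressed. Rbp4, the retinol carrier, read 1919 and 1322 (log2 -0.45) and is the only one of the 22 on chromosome 19. Of the 14 liver genes that were embryo-enriched, 12 lay below 0, with a median of -0.18. In 7 liver genes with further expressed probe sets, 12 of 14 such probe sets were below 0, with a median of -0.22. No strain difference in the testis is given for the list, since several of its genes lay below the floor there.

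**Figure D3:**
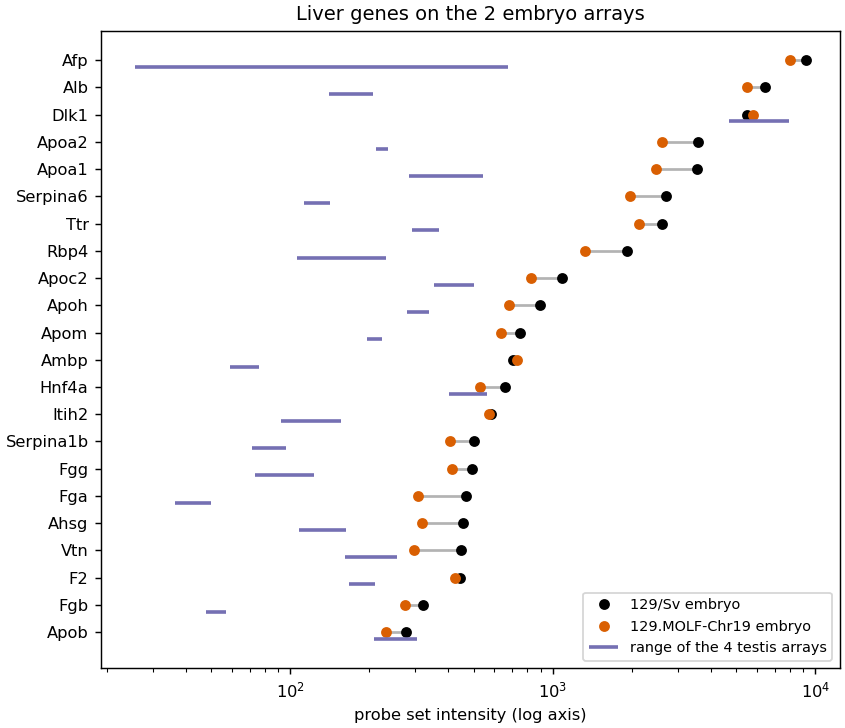
Intensity of 22 liver genes on the 129/Sv (black) and 129.MOLF-Chr19 (orange) embryo arrays, on a log axis, with the range of the 4 testis arrays in purple. The orange point lies to the left for most genes, as for Apoa1 (3544 and 2478), in intensities as deposited, before centring.

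Blood cells, which share the fetal liver with hepatocytes, lay on both sides of 0. Of 13 definitive erythroid genes, 9 lay above 0 with a median of 0.04, which was -0.05 without centring. The heme synthesis gene Alas2 was at -0.07 (2230 and 1999), and the anion exchanger gene Slc4a1 at 0.20 (2744 and 2962), while the lowest was Rhag at -0.28 (607 and 470). The 3 embryonic globins of primitive red cells were at 0.07 (Hbb-y), 0.13 (Hba-x) and 0.33 (Hbb-bh1, 4941 and 5850). White blood cell genes lay below 0 for 12 of 15, with a median of -0.11 that was -0.20 without centring. Adgre1, the macrophage antigen F4/80, was lowest at -0.63 (651 and 396), and Csf1r, the macrophage growth factor receptor, was at -0.43 (2506 and 1755).

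Nervous system lists are read against the 53.2% of all genes that lay above 0. Of 21 neuronal genes 13 were above 0, with a median of 0.14 that was 0.03 with the floor at the 40th percentile, without the expression filter or with the probe sets brightest in the testes. All 11 embryo-enriched neuronal genes were above 0, with a median of 0.25. Most embryo-enriched genes of any kind lay above 0 too, as given above. Besides Tubb3, the neurofilament genes Nefl (1706 and 2144, log2 0.42) and Nefm (1586 and 1778, log2 0.25) were among the 11. Ina counted there at 0.03 with the probe set that represents it, but its other expressed probe sets were at -1.45 and -1.12. In the whole neuronal list Syt1 (-0.47) and Myt1l (-0.40), which the testes expressed at like levels, were lowest. Of 17 neural progenitor genes 10 were above 0, with a median of 0.16 (0.07 without centring). Apart from Notch1 and Fzd8 they ran from Sox2 at 0.36 to Pax6 at -0.38 and Msi1 at -0.49 (1037 and 694).

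Genes of sensory and autonomic ganglia lay below 0 in 8 of 10, with a median of -0.27. The intermediate filament gene Prph read 2205 and 1444 (log2 -0.52) and Runx1 2144 and 1477 (log2 -0.45). Both were expressed in the testis pools too, Prph at 837 to 1449 and Runx1 at 1060 to 1382, and no gene of this list was embryo-enriched. Regional lists were mixed. Of 9 forebrain genes 3 were above 0, with Lhx2 highest at 0.48 and Lhx6 lowest at -0.46, and of 12 genes of midbrain, hindbrain and spinal cord 6 were above 0.

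Muscle, skeleton and skin lay nearer to 0. Skeletal muscle genes lay below 0 in 14 of 21, with a median of -0.10 (-0.18 without centring), and the fast troponin I gene Tnni2 was lowest at -0.65 (874 and 525), with a second probe set at -0.14. Of 12 cartilage genes 7 lay above 0, with a median of 0.04 that was -0.05 without centring, and Col2a1 was highest at 0.41. Twist1, a mesenchymal factor, was at 0.63 (470 and 683). In skin the median over 14 genes was 0.01 and lay below 0 under each other scaling, while Lor, which encodes the cornified envelope protein loricrin, was at -0.86 (4264 and 2206), with a second expressed probe set at 0.08. Lor read 1881 to 2538 in the testes as well, so it did not mark skin on these arrays.

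Single members of other organ lists lay well below 0. Etv5, a target of fibroblast growth factor signalling in the lung bud, read 1001 and 500.4 (log2 -0.91) and 755 to 946 in the testes, while its other expressed probe set was at 0.16 (270 and 284). Pnmt, the adrenaline-forming enzyme of chromaffin cells, read 3407 and 2033 (log2 -0.66), with testis levels of 2207 to 2485 and a second expressed probe set at -0.48. Intestine and stomach genes had a median of -0.30 over 8 genes, which came to -0.01 without the expression filter and to 0.00 with the mean of each gene's probe sets. They ran from Gkn2 at -0.52 to Gata6 at 0.52 and were dim, and only Tff3 exceeded 600 in a pool.

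Proliferation and chaperone genes lay mostly above 0. Of 25 cell cycle genes 18 did so, with a median of 0.14 (0.05 without centring). Mcm5 of the replicative helicase was at 0.64 (1830 and 2674) and 0.30 (1784 and 2063) with its 2 brighter probe sets, and the proliferation antigen gene Mki67 at 0.28, while Dsn1 was the lowest. Of 13 chaperone genes 10 were above 0, with a median of 0.20 (0.11 without centring). Hsph1 was highest at 0.62 (759 and 1094), Hspa5, the main chaperone of the endoplasmic reticulum, was at 0.51 (4062 and 5429), and the small heat shock genes Cryab (-0.29) and Hspb1 (-0.23) were lowest. The cytosolic chaperone genes Hspa8 (8164 and 8920) and Hsp90aa1 (6985 and 7237) were at 0.22 and 0.14. In the testis the list's median was 0.08 at E13.5 and -0.03 at PN1.

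The promoters of Hspa5 (chr2:34771940-34772089, plus strand) and Hsp90b1 (chr10:86705445-86705594, minus strand), which both encode chaperones of the endoplasmic reticulum, are printed because they hold the stress element of that compartment, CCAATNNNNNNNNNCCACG or its reverse complement, shown in capitals.
Hspa5: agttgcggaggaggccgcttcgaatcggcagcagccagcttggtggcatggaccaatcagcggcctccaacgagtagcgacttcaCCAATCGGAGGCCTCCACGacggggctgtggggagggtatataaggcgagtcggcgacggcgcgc
Hsp90b1: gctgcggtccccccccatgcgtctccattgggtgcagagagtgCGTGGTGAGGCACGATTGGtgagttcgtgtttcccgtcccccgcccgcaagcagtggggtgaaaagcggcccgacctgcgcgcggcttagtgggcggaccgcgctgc
This element was in 2 of the 10 chaperone genes with a promoter in the table and in 0.113% of all windows, searched on both strands. The classic heat shock element GAANNTTCNNGAA, searched likewise, was in Hspd1 and Hspe1 and in 0.466% of windows. Hspd1 and Hspe1 were at 0.14 and 0.17, and Hsp90b1 at 0.21, in a list where 10 of 13 genes lay above 0.

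**Figure D4:**
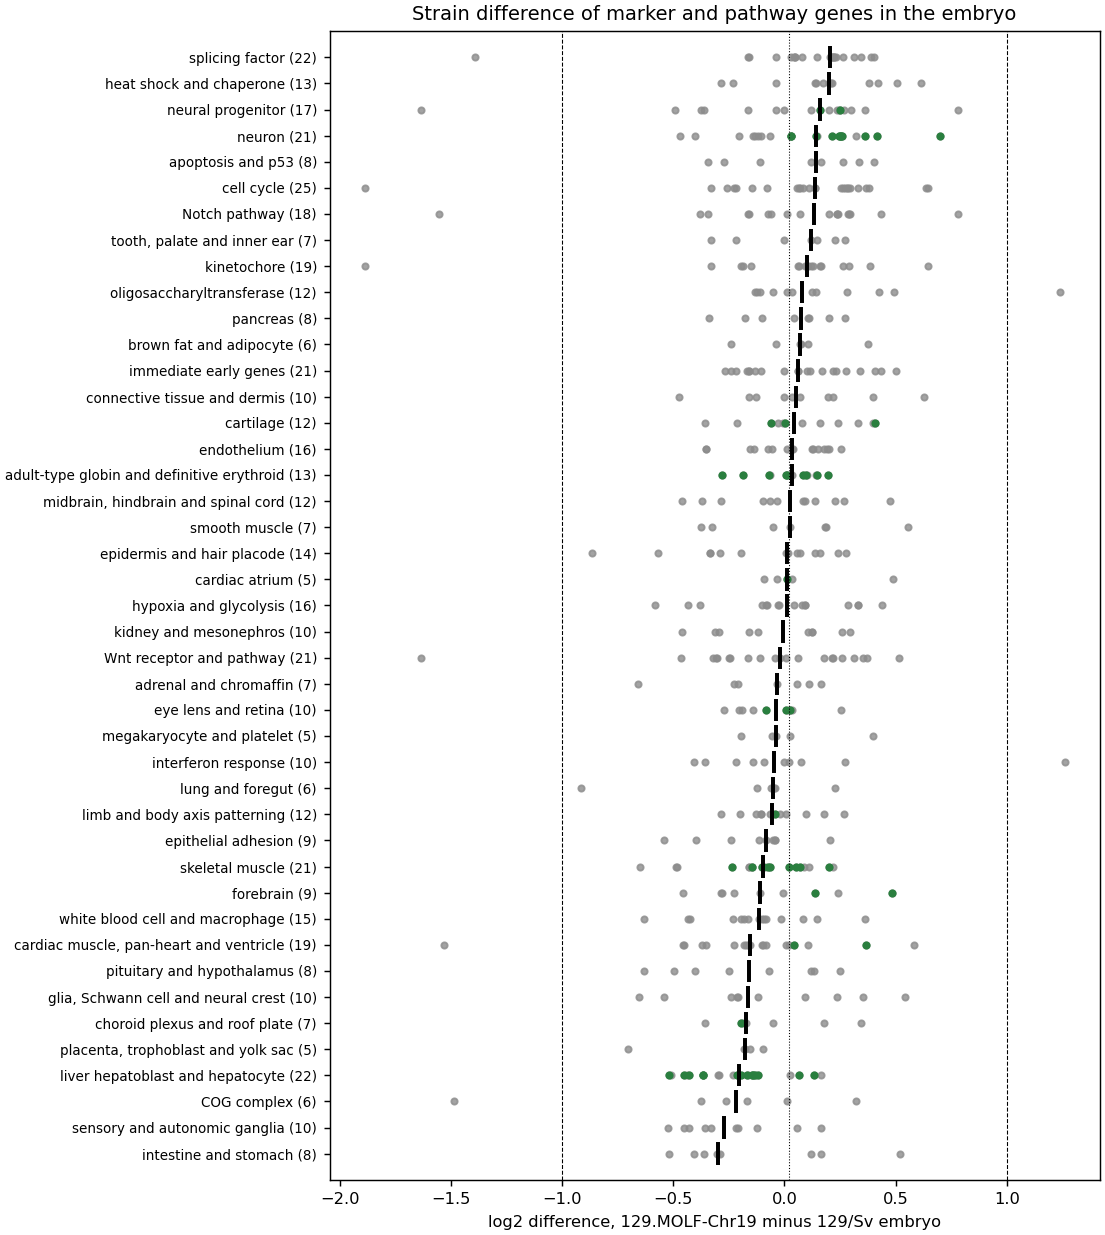
Strain difference (log2, 129.MOLF-Chr19 minus 129/Sv embryo) of the genes in each list with at least 5 genes compared, with the number of genes in parentheses; green points are embryo-enriched genes, black bars are list medians, the dotted line is the median of all genes (0.02) and dashed lines are 2-fold. List medians run from -0.30 to 0.21, and most points lie within 2-fold.

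Chromosome 19, the exchanged chromosome, carried 714 of the expressed probe sets. Of these, 10 (1.4%) were at least 2-fold lower in the 129.MOLF-Chr19 embryo and 1 (0.14%) at least 2-fold higher. On the other chromosomes together, 47 of 19720 (0.238%) were lower and 11 (0.0558%) higher. At 1.5-fold the chromosome 19 shares were 3.78% lower and 3.22% higher, against 1.99% and 1.85% elsewhere. By gene, 4 of the 434 chromosome 19 genes compared were past 2-fold, beside 10 of 1055 on chromosome 11. Because the 2 strains differ in sequence along chromosome 19, a difference in RNA level and a difference in how well a probe matches cannot be told apart there.

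Sf1 held the largest difference of any chromosome 19 probe set. This probe set read 5439 in the 129/Sv embryo and 603 in the 129.MOLF-Chr19 embryo (log2 -3.09), and the testes showed it too, at 5664 and 856 at E13.5 and 4894 and 797 at PN1. The brightest probe set of Sf1 read 8012 and 2874 in the embryos (log2 -1.39), against -0.30 and -0.39 in the testes. Its 2 other expressed probe sets were higher in 129.MOLF-Chr19, at 0.22 (481 and 527) and 0.67 (1097 and 1643). The probe sets of this gene therefore lay on both sides of 0.

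Pum3, an RNA-binding protein of the nucleolus, and Cox15, which makes heme A for cytochrome oxidase, are the other genes that the submitters name. A probe set of Pum3 read 743 and 146 (log2 -2.25), with -2.46 and -2.48 in the testes, while its 2 others were at 0.36 and -0.24. A probe set of Cox15 read 339 and 50.2, the second below the floor of 117 set for that array, so its -1.44 is limited by the floor. The other expressed probe sets of Cox15 were at -0.27 and -0.31. Each of the 3 named genes was thus far lower with 1 or 2 probe sets and not with the rest.

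Of the 10 lower probe sets, 5 were at least 1.5-fold lower in both testis comparisons too, those of Sf1, Pum3, Cox15, Ndufv1 and Trim8. Of the 47 on other chromosomes, 0 were. The shares over all expressed probe sets were not counted. Some chromosome 19 probe sets outside the 10 were that much lower in both testis comparisons, such as those of Carnmt1 (-0.83 and -0.94) and Pank1 (-0.76 and -0.90). Ndufv1, a subunit of respiratory complex I, read 856 and 338 (log2 -1.25), with -0.98 and -1.48 in the testes, the probe set that represents the gene was at -0.70, and the remaining expressed one at -0.03. Trim8, a ubiquitin ligase, read 803 and 362 (log2 -1.06), with -1.03 and -1.39 in the testes, and its other probe sets were at 0.54 and 0.03. Exoc6 of the exocyst was at -1.01 (382 and 179), with -0.87 and -0.52 in the testes, and its other expressed probe sets were at 0.11 and -0.16.

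The remaining lower probe sets were those of Sipa1 and Ina. Sipa1, which inactivates the GTPase Rap1, read 1144 and 532 (log2 -1.02) but was at 0.21 and -0.09 in the testes. Ina, a neuronal intermediate filament gene, had probe sets at -1.45 (3447 and 1191) and -1.12 (2800 and 1215), and the probe set that represents the gene was at 0.03 (1628 and 1565). The first of these was lower in the testes too, at -0.58 (E13.5) and -1.04 (PN1), where it read 175 and 241 in 129/Sv and lay below the floor in 129.MOLF-Chr19 (105 and 104). The second was at 0.17 and -0.20 there.

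Tmem258, a subunit of the oligosaccharyltransferase that attaches N-glycans in the endoplasmic reticulum, was the chromosome 19 gene at least 2-fold higher. It read 474 and 1053 in the embryo, 452 and 1196 in the E13.5 testis and 475 and 1092 in the PN1 testis, so in all 3 tissues the 129.MOLF-Chr19 array was the brighter. The log2 differences were 1.24, 1.52 and 1.20, and a second, dimmer probe set was at 0.00 in the embryo (294 and 277). Its partners Rpn1 (0.49), Ddost (0.42), Stt3a (0.03) and Dad1 (-0.05) lay on both sides of 0. Probe sets of Tnks2 (0.80) and Rnaseh2c (0.65) on chromosome 19, and of Kat2b (0.999) and Commd1 (0.60) elsewhere, were also at least 1.5-fold higher in all 3 tissues. The other expressed probe sets of Tnks2 were at 0.07 and -0.16 in the embryo, and those of Rnaseh2c at -0.12 and -0.45.

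**Figure D5:**
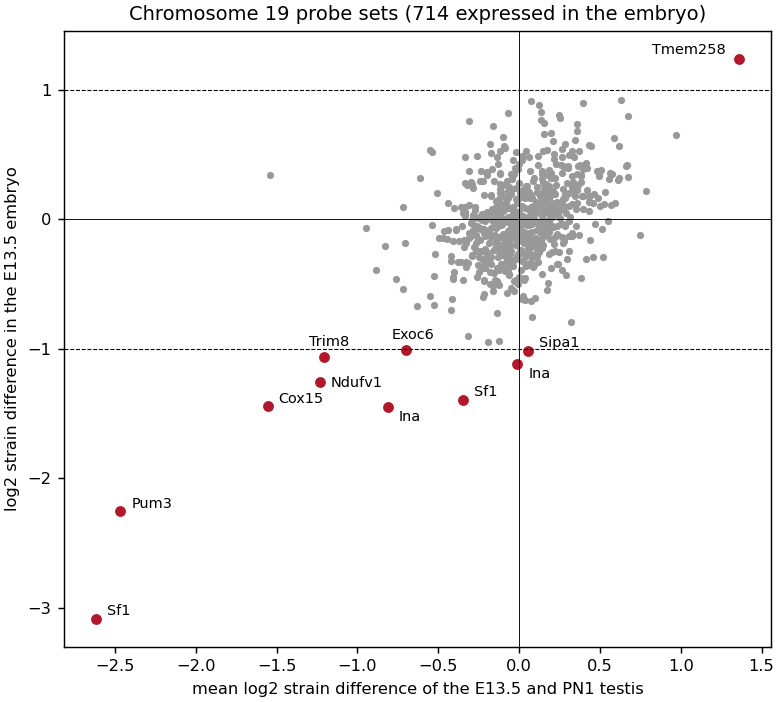
Strain difference of 714 chromosome 19 probe sets in the embryo (y axis) against the mean of their strain differences in the E13.5 and PN1 testis (x axis), all as log2 of 129.MOLF-Chr19 over 129/Sv; red points are past 2-fold in the embryo. Sf1 (-3.09), Pum3 (-2.25) and Tmem258 (1.24) lie far from 0 on both axes, whereas Sipa1 (-1.02) lies near 0 on the x axis.

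Across all genes compared, the strain difference in the embryo correlated with that in the E13.5 testis at Pearson's r = 0.33 and with that in the PN1 testis at 0.03. The first was 0.49 over the chromosome 19 genes and 0.32 over the rest. These values are across genes, which are not independent replicates, and the arrays compared share no sample.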

How the data were processed

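RNA of 6 pools was hybridised to Affymetrix mouse arrays. The deposited values are probe set intensities on a linear scale, 45101 per array including 64 controls. The method that summarised probes is not given in the sources used here. Of the probe sets, 34958 have 1 gene symbol, and those with several (932) or none (9211) were left out of gene comparisons. Intensities below the array's 25th percentile were raised to it. Values were taken to log2, and each array's median over non-control probe sets was subtracted. A gene was compared if the higher embryo array lay above its median. Positions come from RefSeq (GRCm38.p6). With 1 array per group nothing was tested, and the number of arrays limits the precision.

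The genes named were every gene past 2-fold, genes whose probe sets all passed 1.5-fold one way, chromosome 19 probe sets past 2-fold, and the submitters' 3 genes. Other genes came from 49 gene lists (753 genes, 695 measured, 527 compared) or from gene families, as examples chosen after their values were seen. They do not include the extremes of every list, and several lists, such as endothelium, kidney and pancreas, have no member named. The members and lists were chosen with earlier results of these data known. Alternatives were the deposited values uncentred, quantile and lowess scaling, other floors, filters and fold thresholds, the mean of all probe sets, each probe set alone, and the probe set brightest in the testes. The counting was tested on simulated data. Tools were Python 3.11.15, pandas 2.3.3, numpy 2.4.6, matplotlib 3.10.9, statsmodels 0.14.6 and scipy 1.17.1.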

Additional observations from a re-analysis of the deposited data

Results flagged for a closer look

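Kdm6b had opposite strain differences in 2 tissues. It was at 1.065 (log2) in the embryo and at -2.653 in the PN1 testis, where it read 1329 in 129/Sv and 212 in 129.MOLF-Chr19. Sp3 was likewise at 1.225 in the embryo and at -0.7624 in the PN1 testis, with 1204 and 711. The other expressed probe sets of Kdm6b were at -0.46 and -0.04 in the embryo. The PN1 129.MOLF-Chr19 array is the one with an Actb 3′ to 5′ ratio of 1.84, against 1.09 to 1.19 on the other testis arrays. Its part in these values was not tested. Each group had 1 array, and the difference between tissues was not tested.

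Among 3273 expressed probe sets without a single gene symbol, 1 was at least 2-fold higher in the 129.MOLF-Chr19 embryo. It was at 1.351 (235 and 565), and at 0.70 and 0.79 in the E13.5 and PN1 testis. In the embryo it counted as expressed only through 129.MOLF-Chr19, since 235 lies below the 129/Sv array median of 251. Another 13 probe sets without a single gene symbol were at least 2-fold lower.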

How the results depend on the processing

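Averaging a gene's probe sets gave counts of 1 higher and 11 lower. All 31 genes past 2-fold with another probe set came under 2-fold, and the 12 that stayed have no other probe set, so averaging could not change them. Each probe set on its own gave 13 higher and 70 lower. At 1.5-fold the counts were 144 and 279, and at 3-fold 0 and 3. With the probe set brightest in the testes, Slc35a5 changed sign to -0.3503. The other scalings, floors and filters kept each count within 1.5 times. The 12 genes past 2-fold the same way in all 9 settings were B3glct, Cacng3, Drg2, Dsn1, Gjb2, Mrpl20, Rasl10b, Sat2, Sipa1, Sp3, Tnni3 and Zfp692. It was averaging that cut the list to these 12, for which the choice of probe set is untested. Each change of scaling, floor or filter by itself kept 41 to 43 of the 43 genes past 2-fold.

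Medians of 29 lists kept their sign in every setting and 20 changed it in at least 1, smooth muscle and skin in 5 of 9. The liver median ran from -0.29 to -0.17, ganglia from -0.36 to -0.18, neurons from 0.03 to 0.18, splicing from 0.10 to 0.21 and chaperones from 0.11 to 0.23. The intestine and stomach median of -0.30 came to -0.01 without the filter and 0.00 with the mean of probe sets. No paired analysis was possible because each group has 1 array. The pools hold 3 embryos each, and spread between embryos is not measured.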
